A study of Nicotiana tabacum with 32 samples.

Results

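These data describe tobacco suspension cells with reduced SIPK, a mitogen-activated protein kinase, set against wild-type cells after 8 h of harpin. The arrays were chosen by their titles, which gave 3 of the 32 arrays of the series. Each of these arrays held SIPK-silenced (RNA interference, SIPK-Ri) cells of Nicotiana tabacum cv. Xanthi labelled with Cy3 and wild-type Xanthi cells labelled with Cy5, both treated with harpin for 8 h. A further 4 groups of 3 arrays were set beside them. These compared the same genotypes after 8 h of megaspermin, after 4 h of harpin and in the biotic control at 0 h, and, in wild-type cells only, 4 h of harpin with the untreated control at 0 h. The other groups of the series served only for the shared model and the correlations between arrays. They compared the genotypes after 4 h of megaspermin, in an abiotic control and after 4 h and 8 h of xanthine oxidase, and wild-type cells after 4 h of megaspermin with their control. Per the labels, cells of each genotype were pooled and then divided into 3 volumes, which were paired at random on slides, so the 3 arrays measure the spread between volumes of a single pooled culture. The labels give no promoter for the silencing construct and no number of independent lines.

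SIPK, the salicylic acid-induced protein kinase of tobacco, is a terminal kinase of a phosphorylation cascade that runs from sensors at the plasma membrane to transcription factors and enzymes. It is activated by salicylic acid, wounding, ozone and microbial elicitors, and its counterpart in Arabidopsis is known to phosphorylate ethylene-forming enzymes and WRKY transcription factors. Harpins are proteins secreted by bacterial plant pathogens such as Pseudomonas syringae, and in tobacco they set off ion fluxes, an oxidative burst and often hypersensitive cell death. Megaspermin is an elicitor protein of the oomycete Phytophthora megasperma.

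The deposited value of each spot was read as a log2 ratio of silenced over wild-type cells. No label states which channel is on top, so this direction is likely rather than known: the labels call the silenced cells the query and the wild type the reference, while the titles put the wild type first. All signs below rest on it. The array carried cDNA clones of potato, named by potato gene symbols, and related tobacco transcripts may hybridise to the same clone. No clone could be recognised as SIPK, and the depth of its silencing was therefore not checked on these arrays. A ratio gives no level, and the labelled cell type could not be checked through marker levels: of 6 clones of the photosystem subunit PSBR, 2 had enough values to be tested, and of 2 clones of the starch granule enzyme GBSS, 0.

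Values were present for 11604, 14523 and 18601 of 32448 spots on arrays 1, 2 and 3, or 6601, 8190 and 10100 of 15360 clones after duplicate spots were averaged. The arrays correlated with each other at 0.890 (arrays 1 and 2), 0.852 (arrays 1 and 3) and 0.876 (arrays 2 and 3). Across clones, their correlations with the other genotype arrays ran from 0.363 to 0.689. The arrays with fewer measured spots also had the wider spread, with standard deviations over clones of 0.781, 0.719 and 0.599, and whether this difference in measured spots moved any result was not tested beyond leaving out each array. There was no dye-exchanged array for 8 h of harpin, so on these arrays the genotype and the dye cannot be told apart.

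A large share of the measurable transcriptome differed between silenced and wild-type cells at 8 h of harpin. Of 8324 clones tested with limma, 3833 were called at an adjusted p of 0.05, 46.0 percent, with 1935 (23.2 percent) higher and 1898 (22.8 percent) lower in silenced cells. The effects were mostly modest. The median absolute log2 ratio was 0.67 among called clones and 0.35 among all tested clones, and 426 called clones were at least 2-fold higher and 562 at least 2-fold lower. Differences of at least 4-fold were found for 54 clones in the higher and 55 in the lower direction, and the extremes were 17.0-fold higher and 16.3-fold lower. Of the called clones, 3792 had the same sign on every array that measured them, beside 6024 of all 8324 tested clones. A call itself depends on agreement between arrays. All 3 arrays measured 3400 of the called clones.

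**Figure D1:**
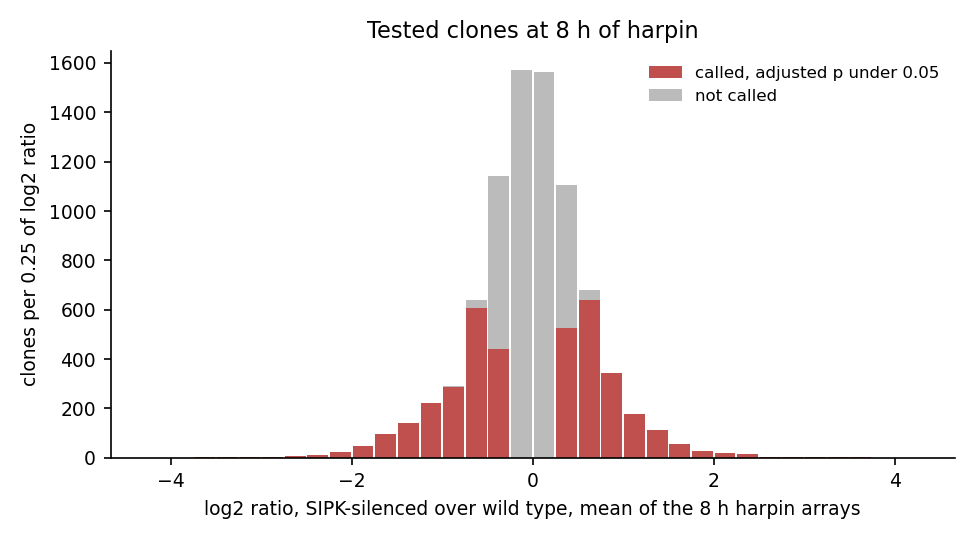
Number of tested clones (y axis, per 0.25 of log2 ratio) by their mean log2 ratio of SIPK-silenced over wild-type cells on the 8 h harpin arrays (x axis), stacked by call. The 3833 called clones (red) make up both flanks, 1935 on the right and 1898 on the left, while clones near 0 (grey) were not called.

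Clones with 1 gene symbol numbered 815, of which 709 were tested and 407 (57.4%) called, 186 higher and 221 lower. Named genes are given below by role, each by the clone that the naming rule chose or by all clones of a listed gene. The rule took only clones with 1 sign on every measured array. Agreement of sign among the highest and lowest symbols and loci was thus set by the rule. In the plot of the 15 highest and 15 lowest symbols, the highest lay further from 0 than the lowest: ADH1 and ERS averaged 3.49 and 3.33, and the lowest, BEL5, -1.24.

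**Figure D2:**
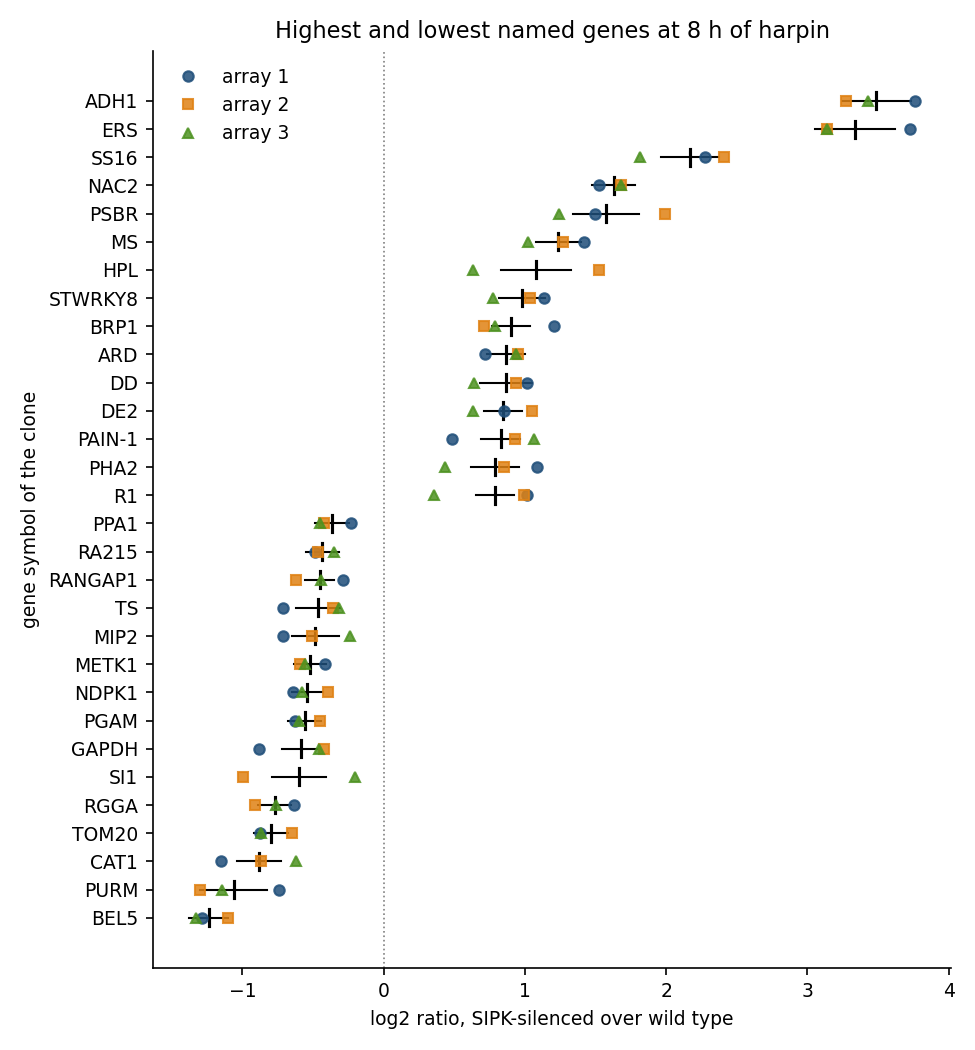
Log2 ratio of SIPK-silenced over wild-type cells (x axis) for the 15 highest and 15 lowest symbols that are not numbered loci (y axis). Points are the 3 arrays, the vertical tick is the mean and the horizontal line its standard error in the limma model. ADH1 and ERS lie above 3 on every array and BEL5 below -1 on every array.

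The list of ethylene and methionine genes held 1 of the largest named differences, that of the ethylene receptor ERS, while its other clones differed less. Ethylene is made from methionine through S-adenosylmethionine, and ERS is one of the receptors that hold the ethylene pathway off until the hormone binds. ERS had log2 ratios of 3.72, 3.14 and 3.14 on arrays 1 to 3. The mean was 3.33 ± 0.28 (standard error of the limma model, as in later values unless called SD) or 10.1-fold, with an adjusted p of 1.63e-10. All 3 arrays placed ERS far above wild type, array 1 highest. ARD, the acireductone dioxygenase of the methionine salvage cycle, had 0.72, 0.95 and 0.94 (mean 0.87 ± 0.14, adjusted p = 6.13e-06), and SHMT, a serine hydroxymethyltransferase that supplies one-carbon units, had 0.47, 1.14 and 0.65 (mean 0.75 ± 0.17, adjusted p = 4.95e-04). Both were higher on every array, which the naming rule required of ARD.

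MS, methionine synthase, was represented by 5 clones, of which 4 were called higher. The highest MS clone had 1.42, 1.27 and 1.02 (mean 1.24 ± 0.16, adjusted p = 2.48e-07), the other called clones averaged 0.95, 0.93 and 0.40 (the last not called without array 2 or with arrays scaled to a common spread, adjusted p = 0.0648 and 0.0635), and the clone not called averaged 0.30 (adjusted p = 0.0662). METK1, the S-adenosylmethionine synthetase that uses methionine, went the other way where it was called: 2 of 9 clones were lower, at -0.52 ± 0.12 (arrays -0.42, -0.59 and -0.56) and -0.42 ± 0.12 (arrays -0.56, -0.40 and -0.32, not called without array 1, adjusted p = 0.0656), and 7 did not pass the test, with means from -0.25 to 0.06. TS, threonine synthase, which draws on the precursor shared with methionine, was lower at -0.46 ± 0.16 (arrays -0.72, -0.36 and -0.32, adjusted p = 0.0181). The TS call was lost without array 1 (adjusted p = 0.175) and with a dye term (0.102). In all, 7 of the 19 tested clones of this list were higher and 3 lower, beside 23.2 percent higher and 22.8 percent lower among all tested clones. The median log2 ratio of the list was -0.09, against -0.01 over all tested clones, and the number lower fell to 1 without array 1.

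Of 9 tested clones in the defence list, 7 were higher and 0 lower, with a median of 0.78, beside 23.2 percent higher among all tested clones. The number higher fell to 3 without array 2, without array 3 or with a dye term, and to 4 when both duplicate spots were required. In the control 6 of 11 tested clones of the list were higher and 0 lower, beside 1457 and 1525 of all 10276. At 4 h of harpin 6 of 9 were higher and 0 lower, beside 1274 and 1390 of all 8503. The effect was more positive at 8 h of harpin than in the control for 3 of 9 clones and more negative for 2. Among all tested clones these shares were 7.90 percent and 9.92 percent. NAC2, a NAC-family transcription factor, had 1.52, 1.68 and 1.68 (mean 1.63 ± 0.15, 3.09-fold, adjusted p = 3.10e-09). The 3 arrays lay close together. STWRKY8, a WRKY transcription factor, was higher on both clones, with 1.14, 1.03 and 0.78 (mean 0.98 ± 0.16) and 0.75, 0.78 and 0.82 (mean 0.78 ± 0.16, adjusted p = 2.56e-04).

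HPL, a hydroperoxide lyase that makes volatile aldehydes from fatty acid hydroperoxides, was measured on arrays 2 and 3 only. Its clones had 1.52 and 0.63 (mean 1.08 ± 0.25) and 0.59 and 1.23 (mean 0.91 ± 0.25), and both were called, although the 2 arrays lay apart in each. Both calls were lost when a dye term, estimated from the arrays with exchanged dyes, entered the model (adjusted p = 0.0648 and 0.147). PPO, polyphenol oxidase, which oxidises phenolics to quinones, was higher on both clones, at 0.64 ± 0.20 (arrays 0.42, 0.76 and 0.74) and 0.44 ± 0.18 (arrays 0.49, 0.31 and 0.53). The PPO calls were lost without array 2 (adjusted p = 0.0658 and 0.072), without array 3 (0.056 and 0.153) and with the dye term (0.149 and 0.315), and that of the second clone also without array 1 (0.156). PR1B, a pathogenesis-related protein, averaged 0.01 and VPE2, a vacuolar processing enzyme, 0.04, and neither passed the test (adjusted p = 0.974 and 0.831).

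Among redox genes, 1 of 8 tested clones was higher and 2 lower, shares close to the 23.2 percent and 22.8 percent of all tested clones or below them. All 3 of these were clones of CAT1, a catalase that breaks down hydrogen peroxide. The first and second CAT1 clones were lower, with -0.72, -0.82 and -0.88 (mean -0.81 ± 0.12, adjusted p = 4.29e-06) and -1.15, -0.87 and -0.62 (mean -0.88 ± 0.15, adjusted p = 3.02e-05). The third CAT1 clone was higher, with 0.51, 0.13 and 0.75 (mean 0.46 ± 0.19, adjusted p = 0.0429), a call lost without array 1 or array 3 or with a dye term (adjusted p = 0.141, 0.253 and 0.0782). The clones of this symbol thus disagreed, and which tobacco transcripts each binds is not known here. The alternative oxidase AOX averaged 0.05 on 2 arrays, the uncoupling protein UCP 0.16 and 0.22, and the dehydroascorbate reductase DHAR2 -0.02, all without a call.

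In carbon metabolism, 7 of 21 tested clones were higher and 5 lower, beside 23.2 percent and 22.8 percent of all tested clones, with a median of 0.05. The number lower fell to 3 with a dye term. ADH1, the alcohol dehydrogenase of fermentation, was the highest named gene apart from numbered loci, with 3.76, 3.28 and 3.43 (mean 3.49 ± 0.25, 11.2-fold, adjusted p = 4.13e-12). PAIN-1, an acid invertase that splits sucrose, had 0.48, 0.93 and 1.07 (mean 0.83 ± 0.14, adjusted p = 2.28e-05). TK, transketolase of the pentose phosphate pathway, was higher on both clones (0.35 ± 0.13 and 0.62 ± 0.13), as were both clones of R1 (0.77 ± 0.16 and 0.79 ± 0.13). Every array gave these clones a positive ratio, although the call of the first TK clone was lost without array 1 (adjusted p = 0.217) or array 3 (0.0557).

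Glycolytic enzymes differed in direction. PGAM, phosphoglycerate mutase, was lower on both clones, with -0.34, -0.40 and -0.62 and -0.63, -0.45 and -0.60 (means -0.46 ± 0.12 and -0.56 ± 0.12). GAPDH, glyceraldehyde-3-phosphate dehydrogenase, had 8 clones, of which 1 was lower at -0.59 ± 0.13 (arrays -0.88, -0.42 and -0.46), 1 higher at 0.45 ± 0.16 (arrays 0.50, 0.52 and 0.34) and 6 not called, from -0.37 to 0.32. The higher GAPDH clone lost its call without array 1 or array 2 (adjusted p = 0.101 and 0.0972). PK, pyruvate kinase, stood at 0.05 (adjusted p = 0.814). NDPK1, a nucleoside diphosphate kinase, was lower at -0.54 ± 0.11 (arrays -0.64, -0.40 and -0.58). PPA1, an inorganic pyrophosphatase, was lower at -0.37 ± 0.12 (arrays -0.23, -0.42 and -0.45, adjusted p = 0.0155). The PPA1 call was lost without array 2 or array 3 (adjusted p = 0.0735 and 0.0787). GPI, glucose-6-phosphate isomerase, was in none of the lists and was looked up after its values were seen. It was higher on both clones, with 0.80, 0.63 and 0.55 and 0.76, 0.60 and 0.62 (means 0.66 ± 0.14 and 0.66 ± 0.15). A dye term ended the calls of the first PGAM clone, the first TK clone, the higher GAPDH clone and PPA1 (adjusted p = 0.0534, 0.0957, 0.0523 and 0.0694), and scaling the arrays to a common spread ended those of TK, GAPDH and PPA1 (adjusted p = 0.109, 0.0588 and 0.0532).

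Of 10 tested clones of membrane transport, 3 were higher and 1 lower, which stands near the share of all tested clones for the higher (23.2 percent) and below it for the lower ones (22.8 percent). The higher clones were proton pumps. PHA1, a plasma membrane proton ATPase that powers secondary transport, had 0.56, 0.78 and 0.60 (mean 0.65 ± 0.10, adjusted p = 3.83e-06). Of 4 clones of its relative PHA2, 2 were higher, at 0.79 ± 0.17 (arrays 1.09, 0.85 and 0.43) and 0.46 ± 0.14 (arrays 0.29, 0.67 and 0.41, not called without array 2, adjusted p = 0.0938), and 2 were not called (0.03 and -0.10). The aquaporin MIP2 was lower on 1 of 2 clones, with -0.71, -0.51 and -0.24 (mean -0.49 ± 0.17, adjusted p = 0.0217), a call lost without array 1 or array 2 or with arrays scaled to a common spread (adjusted p = 0.166, 0.0741 and 0.0869). The potassium channel KST1 averaged 0.06 and -0.09 and the sucrose transporter SUT2 0.25, none of them called.

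Kinase, calcium and GTPase signalling held 2 calls among 7 tested clones, beside 46.0 percent called among all tested clones. CDPK2, a calcium-dependent protein kinase, was higher (0.68, 0.32 and 0.26, mean 0.42 ± 0.13, adjusted p = 0.0109) and RANGAP1, a Ran GTPase-activating protein, lower (-0.29, -0.62 and -0.44, mean -0.45 ± 0.10, adjusted p = 7.00e-04). The CDPK2 call was lost without array 1 (adjusted p = 0.16). CDPK1 averaged 0.06 and the SnRK1-type kinase PKIN1 -0.04. Of the 3 hormone clones (auxin proteins IAA2 and IAA3, gibberellin oxidase GA2OX1), the 5 clones of cell wall and cell cycle genes and the 3 of the flavonol synthase FLS, 0 were called by limma, beside 46.0 percent of all tested clones. At an unadjusted limma p under 0.05 there were 2, the IAA2 clone (-0.36) and a STUGE51 clone (-0.34), and no other tool was run. Some settings gave calls: 3 cell wall and cell cycle clones were lower when both duplicate spots were required, and array weights gave 1 higher and 1 lower clone of that list, 1 lower hormone clone and 1 higher FLS clone.

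Outside the lists above, BEL5, a BEL1-like homeodomain transcription factor, was the lowest of the symbols that are not numbered loci. Its lower clone had -1.28, -1.10 and -1.33 (mean -1.24 ± 0.14, adjusted p = 1.89e-08), while the other clone of the symbol was higher, with values from 0.99 to 1.02 on the 3 arrays (mean 1.01 ± 0.19, adjusted p = 8.73e-05). Within each BEL5 clone the arrays lay close together, and the clones differed by far more than that spread. PURM, an enzyme of purine synthesis, had -0.74, -1.30 and -1.15 (mean -1.06 ± 0.24), and TOM20, an import receptor of mitochondria, had -0.88, -0.65 and -0.87 (mean -0.80 ± 0.12). Both were lower on every array, which the naming rule required. PSBR, a subunit of photosystem II, was the only symbol of the photosynthesis list on the array. Of its 2 tested clones 1 was higher, beside 23.2 percent of all tested clones, and 0 lower. The higher clone stood at 1.57 ± 0.24 (arrays 1.49, 1.99 and 1.24), a mean that fell to 1.02 with the dye term and was still called. SS16 was called in both directions: 2 of its clones were higher, with 2.28, 2.41 and 1.82 and 2.23, 2.30 and 1.93, and 1 was lower, with -0.95, -0.56 and -0.60. A further 3 symbols were higher: BRP1 (1.21, 0.71 and 0.79), DD (1.01, 0.94 and 0.64) and DE2 (0.85, 1.05 and 0.64). RGGA (-0.64, -0.91 and -0.76), RA215 (-0.48, -0.47 and -0.35) and SI1 (-0.999 and -0.20 on arrays 2 and 3) were lower. The SI1 call was lost when the 8 h harpin arrays were fitted alone (adjusted p = 0.0691).

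The numbered loci, for which the name table gives no product, reached further than the symbols. LOC102577542 had 4.07, 3.27 and 3.76 (mean 3.70 ± 0.31), LOC102592556 3.19, 2.75 and 2.65 and LOC102604154 2.74, 2.39 and 2.56, the 3 highest. LOC102590882 had -3.60, -3.79 and -3.80 (mean -3.73 ± 0.14, 13.3-fold lower, adjusted p = 7.89e-17), LOC102577526 -2.10, -2.51 and -2.65 and LOC102577734 -2.37, -2.28 and -2.32, the 3 lowest. In each, the groups of 3 values kept well clear of 0.

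Separate clones of a symbol could be compared within the array. Of all 709 tested clones with 1 symbol, 57.4% were called, 186 higher and 221 lower. How often unrelated clones would share a call was not tested. Of 169 symbols with at least 2 tested clones, 23 had every tested clone higher, 36 every clone lower, 60 a part called in a single direction, 35 none called and 15 clones called both ways. Among the 72 symbols with at least 3 tested clones, 6 were higher and 10 lower on every clone. The lower ones include RGGA, whose 4 clones ran from -0.77 to -0.34, LOC102582711 with 6 clones from -1.75 to -1.11, LOC102577446 with 7 clones from -1.68 to -1.02, LOC102580417 with 6 clones around a median of -0.79, and LOC102590882 with 3 clones from -3.73 to -2.91. LOC102592556 was the counterpart on the higher side, with 4 clones from 1.11 to 2.86. These symbols were picked out after their values were seen.

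**Figure D3:**
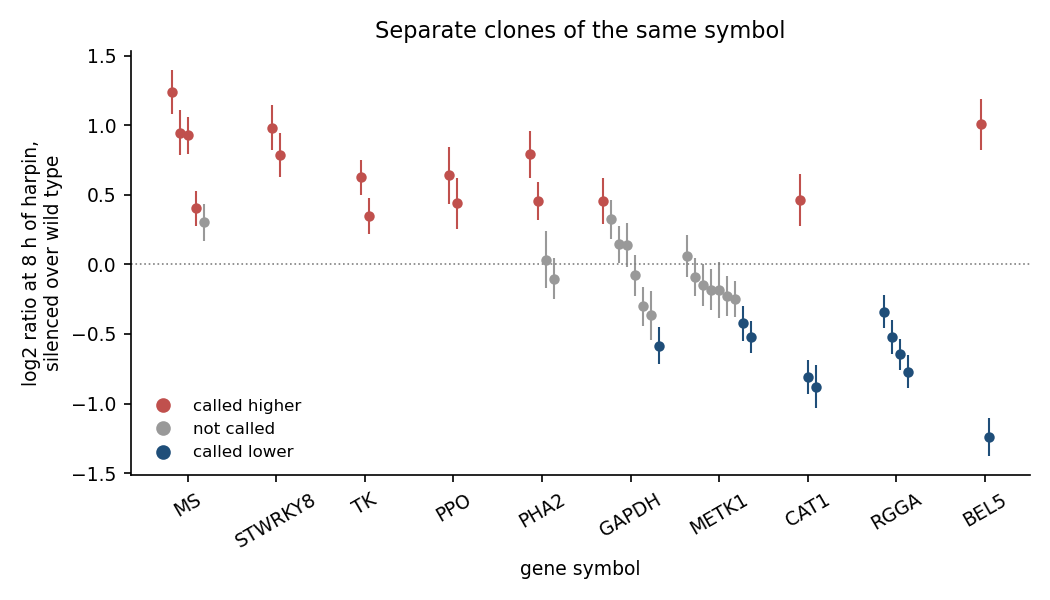
Mean log2 ratio of SIPK-silenced over wild-type cells at 8 h of harpin (y axis) for every tested clone of 10 symbols (x axis), with standard errors of the limma model. MS, STWRKY8, TK and PPO clones lie above 0 and RGGA clones below it, while GAPDH, CAT1 and BEL5 have clones called in both directions.

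To compare the genotype effect at 8 h of harpin with that in other conditions, the effect in the biotic control at 0 h, at 4 h of harpin or at 8 h of megaspermin was subtracted from it, clone by clone. There was no control harvested at 8 h, so time in culture and harpin cannot be told apart in the first of these differences. Of 8244 clones tested, the genotype effect differed between 8 h of harpin and the control for 1469, 17.8 percent: 651 (7.90 percent) were more positive at 8 h of harpin and 818 (9.92 percent) more negative. Of all 8244 clones tested in both conditions, 3801 were called at 8 h of harpin and 2747 in the control. Clones called in both numbered 1923, which is 50.6% of the 8 h calls and 70.0% of the control calls. They had the same direction for 1799 and opposite directions for 124. For 627 of the 8 h calls the clone was not called in the control and the difference itself passed the test.

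Clones of MS, STWRKY8, NAC2 and BRP1 were among those whose excess in silenced cells was larger at 8 h of harpin than in the control. The MS clone had 1.42, 1.27 and 1.02 at 8 h of harpin, against 0.10, 0.03 and 0.73 in the control, a difference of 0.95 ± 0.22 (adjusted p = 0.00305), and the 8 h arrays all lay above the control arrays. STWRKY8 clone 2, its passing clone with the largest difference, had 0.75, 0.78 and 0.82 at 8 h of harpin, against 0.12, -0.07 and -0.28 in the control (difference 0.86 ± 0.22, adjusted p = 0.00825). The excess of this clone was thus close to 0 before treatment, which does not stand for the other STWRKY8 clone. NAC2 had 1.52, 1.68 and 1.68 at 8 h of harpin, against 0.92, 0.80 and 0.73 in the control (difference 0.81 ± 0.22, adjusted p = 0.0095). The NAC2 difference fell to 0.45 (adjusted p = 0.25) when arrays were scaled to a common spread.

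A clone of BEL5 and 3 of 4 clones of RGGA had more negative effects at 8 h of harpin than in the control. BEL5 had -1.28, -1.10 and -1.33 at 8 h of harpin, against -0.10, -0.29 and -0.13 in the control (difference -1.07 ± 0.19, adjusted p = 2.01e-04). RGGA had -0.64, -0.91 and -0.76 at 8 h of harpin, against 0.19, 0.22 and 0.06 in the control (difference -0.93 ± 0.17, adjusted p = 1.68e-04), with opposite signs on every array. PPO showed the reverse of a gain: its excess in silenced cells was 0.42, 0.76 and 0.74 at 8 h of harpin, against 2.93, 2.14 and 2.27 in the control (difference -1.81 ± 0.29, adjusted p = 4.40e-05), and the second PPO clone gave -1.73 ± 0.26. MIP2 (clone 2, -1.28 ± 0.32), PEST2 (-1.11 ± 0.21), SI1 (-0.82 ± 0.25) and GAPDH (clone 8, -0.62 ± 0.19) also had more negative effects at 8 h, and CAT1 (clone 3, 0.95 ± 0.26) and SUT2 (0.69 ± 0.24) more positive ones. The SUT2 call was lost without any single 8 h array or control array 1 (adjusted p from 0.0547 to 0.123) and with median centring (0.0625). The GAPDH call was lost without 8 h array 1 or control array 1 or 3 (adjusted p from 0.0629 to 0.13), the CAT1 call without 8 h array 3 or control array 1 (0.0545 and 0.0618), and the SI1 call without control array 2 (0.0800).

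Several of the largest effects at 8 h of harpin were already there before treatment. ADH1 had 3.76, 3.28 and 3.43 at 8 h of harpin, against 3.99, 3.32 and 3.09 in the control, and the sets of arrays overlapped (difference 0.02 ± 0.35, adjusted p = 0.978). ERS had 3.72, 3.14 and 3.14 at 8 h of harpin, against 3.05, 2.70 and 2.12 in the control (difference 0.71 ± 0.40, adjusted p = 0.246). The difference for ARD was -0.28 ± 0.19, for PAIN-1 -0.15 ± 0.20 and for TK (clone 2) 0.17 ± 0.18, none of which passed the test. The lowest clone of LOC102590882, by contrast, was further below wild type at 8 h of harpin, at -3.60, -3.79 and -3.80, against -2.51, -2.19 and -2.52 in the control (difference -1.32 ± 0.19, adjusted p = 1.70e-05). The other clones of this locus differed from the control by -0.58 ± 0.23 and -0.39 ± 0.17 and did not pass the test (adjusted p = 0.0794 and 0.1247).

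**Figure D4:**
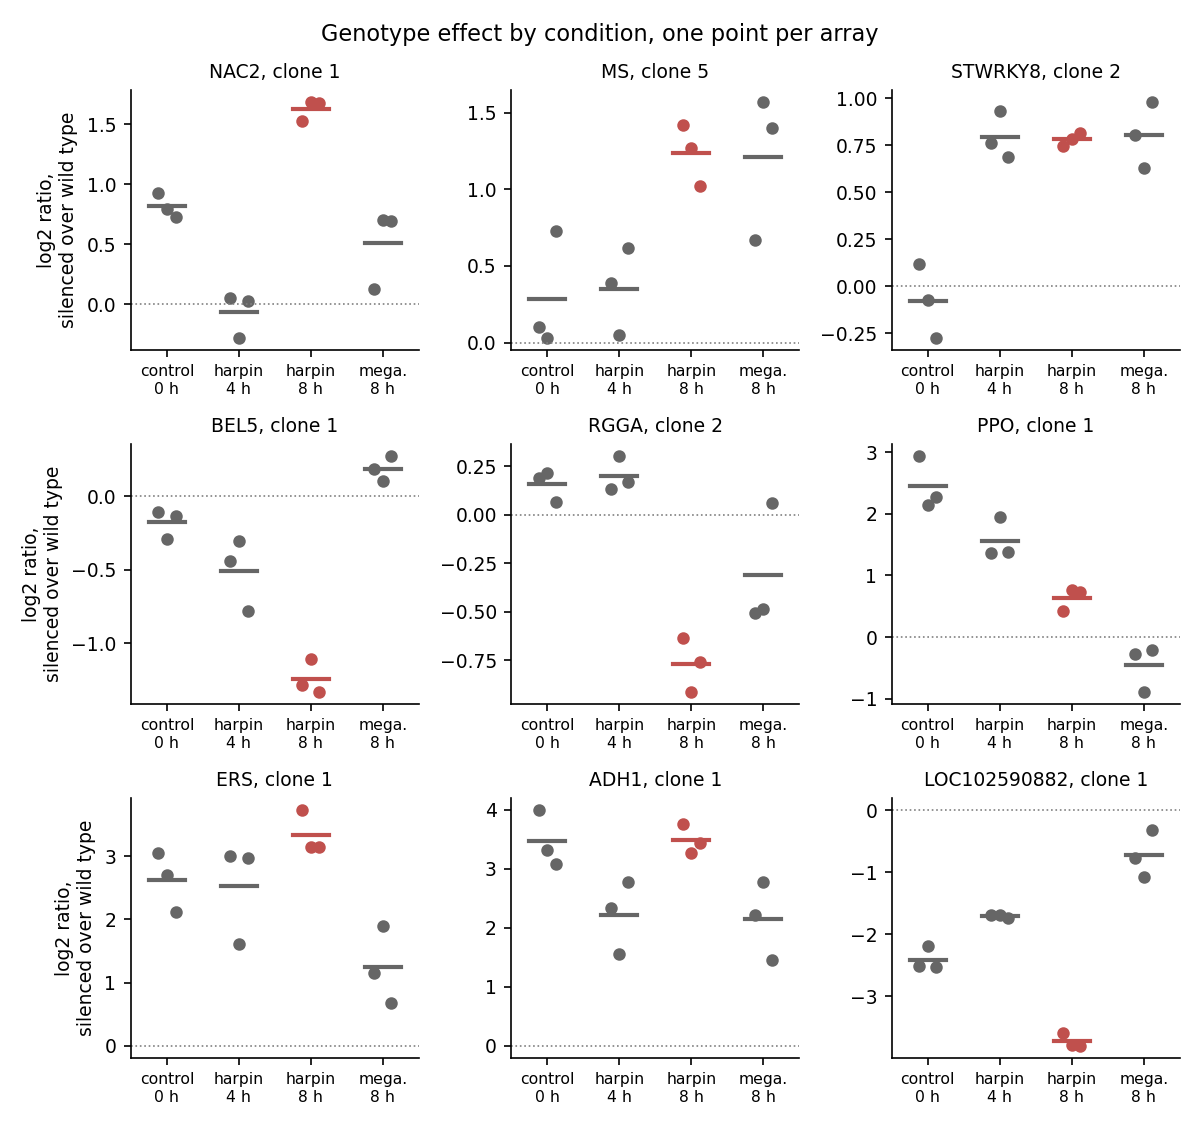
Log2 ratio of SIPK-silenced over wild-type cells (y axis, scaled to each panel) on each array of the control at 0 h, harpin at 4 h and 8 h and megaspermin (mega.) at 8 h (x axis) for 9 clones. Bars are group means, and 8 h of harpin is in red. NAC2 is highest and BEL5, RGGA and LOC102590882 are lowest at 8 h of harpin, while PPO declines in the order control, 4 h and 8 h.

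Between 8 h and 4 h of harpin the genotype effect differed for 1565 of 7675 clones, 20.4 percent, with 802 (10.4 percent) more positive and 763 (9.94 percent) more negative at 8 h. Of all 7675 clones tested at both times, 3679 were called at 8 h and 2554 at 4 h. Clones called at both times numbered 1703, which is 46.3% of the 8 h calls and 66.7% of the 4 h calls. Of these, 1586 had the same direction and 117 opposite directions. NAC2 had the largest named gain, with 1.52, 1.68 and 1.68 at 8 h, against 0.06, -0.28 and 0.03 at 4 h (difference 1.69 ± 0.22, adjusted p = 5.13e-06). At 4 h its arrays lay on both sides of 0. BRP1 had 1.21, 0.71 and 0.79 at 8 h, against -0.44, -0.78 and -0.33 at 4 h (difference 1.42 ± 0.19, adjusted p = 4.36e-06), a change of sign on every array.

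STUGE51, a UDP-glucose 4-epimerase that makes UDP-galactose for cell walls, was far below wild type at 4 h and near it at 8 h. Its clones had -0.38, -0.13 and -0.36 and -0.17, -0.37 and -0.47 at 8 h, against -1.84, -1.77 and -1.72 and -1.27, -1.59 and -1.59 at 4 h (differences 1.48 ± 0.22 and 1.15 ± 0.22, adjusted p = 2.52e-05 and 3.23e-04). AMYA1, an alpha-amylase, had 0.06, -0.03 and -0.30 at 8 h, against -0.94, -1.05 and -0.78 at 4 h (difference 0.83 ± 0.18, adjusted p = 0.0011). In both genes the 2 times did not overlap, and neither gene was called at 8 h. MS (clone 2, 0.94 ± 0.19), ADH1 (1.27 ± 0.35), BEL5 (clone 2, 0.87 ± 0.26) and SUT2 (0.85 ± 0.21) also had more positive effects at 8 h. PEST2 (-1.41 ± 0.21), RGGA (-0.97 ± 0.17), PPO (-0.92 ± 0.29) and GAPDH (clone 8, -0.54 ± 0.19) had more negative ones. Without array 1 of the 8 h group, the calls of ADH1, BEL5, PPO and GAPDH were lost (adjusted p = 0.0533, 0.0547, 0.0974 and 0.214). Without array 2 of the 4 h group these and SUT2 were lost (adjusted p from 0.0534 to 0.119), and GAPDH was lost also without the other 4 h arrays and when the groups were fitted alone. Scaling the arrays to a common spread ended the calls of ADH1 (0.74), BEL5 (0.76) and GAPDH (-0.45).

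At 8 h the other elicitor, megaspermin, offered a comparison at the same time in culture. The genotype effect differed between 8 h of harpin and 8 h of megaspermin for 2231 of 8052 clones, 27.7 percent, with 987 (12.3 percent) more positive and 1244 (15.4 percent) more negative under harpin. Of all 8052 clones tested under both elicitors, 3746 were called under harpin and 3400 under megaspermin. Clones called under both numbered 1928, which is 51.5% of the harpin calls and 56.7% of the megaspermin calls. Of these, 1652 had the same direction and 276 opposite directions.

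ERS showed the largest named difference, with 3.72, 3.14 and 3.14 under harpin, against 1.15, 1.90 and 0.68 under megaspermin (difference 2.09 ± 0.40, adjusted p = 2.21e-04), and ADH1 had 3.76, 3.28 and 3.43 under harpin, against 2.21, 2.77 and 1.46 under megaspermin (difference 1.34 ± 0.35, adjusted p = 0.00445). Neither gene's arrays overlapped between the elicitors. NAC2 (1.12 ± 0.22), PPO (1.09 ± 0.29), FLS (0.89 ± 0.28), BRP1 (0.89 ± 0.19), DE2 (0.79 ± 0.19) and IAA2 (0.79 ± 0.24) likewise had more positive effects under harpin. For IAA2, an auxin response repressor, the megaspermin arrays stood at -1.21, -1.22 and -1.02, beside -0.74, -0.38 and 0.04 under harpin. PPO was higher in silenced cells under harpin and below 0 on every megaspermin array (-0.27, -0.89 and -0.21). The calls of FLS and IAA2 were lost without array 3 of the harpin group (adjusted p = 0.0569 and 0.0916), and the FLS difference fell to 0.56 without array 3 of the megaspermin group (adjusted p = 0.141).

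BEL5 clone 1, the lower of its 2 clones, had -1.28, -1.10 and -1.33 under harpin, against 0.18, 0.11 and 0.27 under megaspermin (difference -1.43 ± 0.19, adjusted p = 2.43e-06). PURM had -0.74, -1.30 and -1.15 under harpin, against 0.33 and 0.00 on the megaspermin arrays with a value (difference -1.23 ± 0.37, adjusted p = 0.0142). PK had 0.10, 0.03 and 0.01 under harpin, against 1.04, 1.57 and 1.45 under megaspermin (difference -1.31 ± 0.19, adjusted p = 9.14e-06), so the pyruvate kinase clone was above wild type on every megaspermin array and near it on the harpin arrays. PHA2 (clone 1, -1.28 ± 0.19), PEST2 (-1.05 ± 0.21), UCP (clone 1, -0.90 ± 0.22), PGAM (clone 1, -0.89 ± 0.17) and SHKA, a DAHP synthase at the head of the shikimate pathway (-0.83 ± 0.20), also had more negative effects under harpin. STWRKY8 (clone 2, -0.02 ± 0.22) and MS (clone 5, 0.03 ± 0.22) did not pass the test between elicitors, with adjusted p of 0.955 and 0.941.

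The size of the genotype effect over a whole array was taken as the median absolute log2 ratio over 5383 clones measured in all 4 genotype groups. It was 0.461, 0.430 and 0.370 on the 8 h harpin arrays (mean 0.42 ± 0.046, SD, n = 3), against 0.366, 0.520 and 0.341 for 8 h of megaspermin (0.409 ± 0.097), 0.354, 0.323 and 0.310 for 4 h of harpin (0.329 ± 0.023) and 0.331, 0.304 and 0.311 in the control (0.315 ± 0.014). The 8 h harpin arrays lay above all arrays of the control and of 4 h of harpin, with differences of 0.105 and 0.0915. The exact two-sided permutation p was 0.1 in both, the smallest that 3 arrays against 3 can give, so neither can pass a threshold of 0.05. The separation was lost when all clones measured on each array were used: array 3 at 8 h of harpin then had 0.278, against 0.282 for the highest control array and 0.286 to 0.333 at 4 h of harpin (exact permutation p = 0.2 and 0.4). Against megaspermin the difference was 0.0113 and the arrays overlapped (exact permutation p = 0.8).

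The last question was where the genes that harpin itself regulates stood. In wild-type cells 4 h of harpin, against the untreated control, moved 3548 of the tested clones at the same threshold, 53.5 percent, of which 1784 (26.9 percent) were raised and 1764 (26.6 percent) lowered. By the labels these arrays share no RNA with the 8 h genotype arrays. On the 8 h arrays, 1710 of the raised clones could be tested, and their median log2 ratio in silenced over wild-type cells was 0.22, 0.23 and 0.26. Of the lowered clones, 1681 could be tested, and their medians were -0.36, -0.41 and -0.41. The 2767 tested clones without a wild-type call had medians of 0.03, 0.05 and 0.06. At 8 h, genes that harpin raises in wild-type cells were thus more often above, and genes it lowers more often below, their wild-type level in silenced cells.

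The counts followed the medians. Of the raised clones, 711 (41.6%) were called higher and 195 (11.4%) lower in silenced cells, beside 23.2 percent and 22.8 percent of all tested clones. Of the lowered clones, 189 (11.2%) were higher and 866 (51.5%) lower. NAC2 is one example, with 1.52, 1.68 and 1.68 in silenced over wild-type cells at 8 h and 1.63 and 1.80 for harpin over control in wild-type cells on the 2 arrays with a value. The lower BEL5 clone (clone 1) is another, with -1.28, -1.10 and -1.33 and -0.64, -1.51 and -1.03. The other BEL5 clone was higher in silenced cells at 8 h, with a mean of 1.01. RGGA (clone 2) is a further example, with -0.64, -0.91 and -0.76 and -0.69, -0.52 and -0.62. ERS was high in silenced cells without a clear wild-type response (-0.08, -0.35 and 0.00), and its excess was already there in the control. METK1 (clone 1) ran opposite to most raised clones with a call, being raised by harpin in wild-type cells (0.88, 0.96 and 1.18) and lower in silenced cells (-0.56, -0.40 and -0.32).

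The same clones were then read on the arrays of 8 h of megaspermin. The raised clones had medians of 0.22, 0.23 and 0.26 on the harpin arrays, against -0.02, -0.05 and -0.09 on the megaspermin arrays, and the lowered clones had -0.36, -0.41 and -0.41 on the harpin arrays, against 0.05, 0.12 and 0.06 on the megaspermin arrays. In neither class did the arrays of the 2 elicitors overlap. With a wild-type response of at least 2-fold, 52.5% of 343 raised clones were higher and 72.6% of 492 lowered clones were lower at 8 h of harpin, with medians over clones of 0.41 and -0.97. For these strongly raised clones the elicitors had the same sign, with array medians of 0.37, 0.43 and 0.40 on the harpin arrays, against 0.19, 0.21 and 0.11 on the megaspermin arrays, where 35.9% were higher and 25.4% lower. The strongly lowered clones had array medians from -0.98 to -0.89 on the harpin arrays, against 0.03 to 0.07 on the megaspermin arrays. The standard arrays of both experiments carry the query in Cy3, and the part of the dye in these medians was not tested. When the clones were chosen on the single wild-type harpin array with exchanged dyes, the medians were 0.31 for 663 raised and -0.77 for 642 lowered clones, and 45.9% were higher and 65.7% lower. Control and 4 h genotype arrays were not read in this way, because their wild-type RNA comes from the same conditions as the selecting arrays. Wild-type cells were not compared with untreated cells at 8 h, so whether the response itself lasted longer or was larger in silenced cells was not measured.

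**Figure D5:**
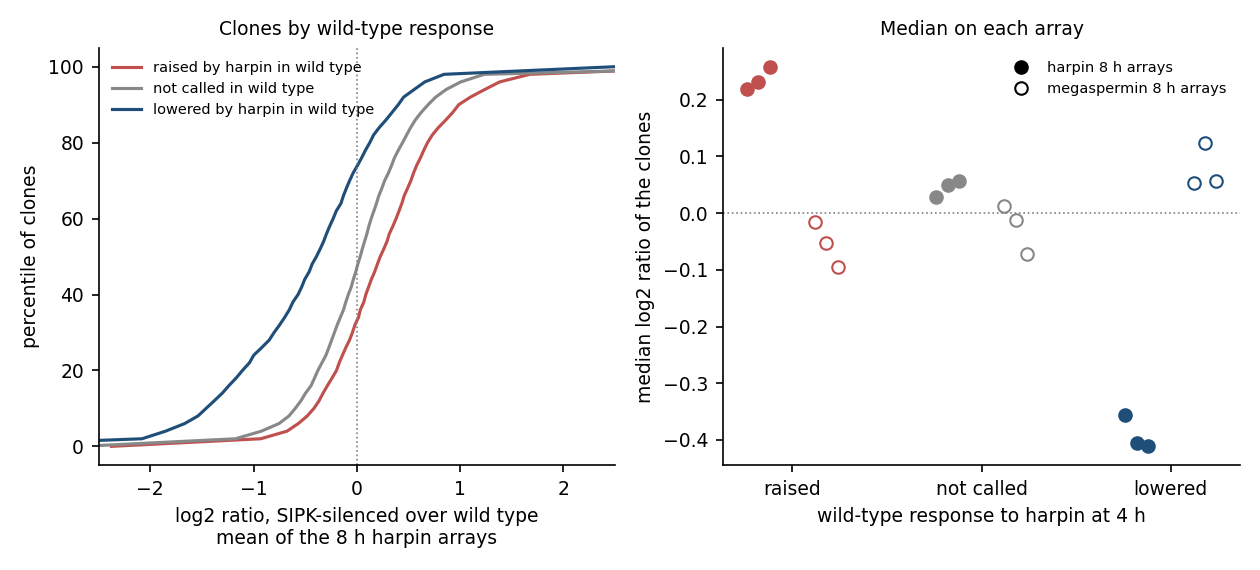
Left, percentile of clones (y axis) by mean log2 ratio of SIPK-silenced over wild-type cells on the 8 h harpin arrays (x axis), for 1710 clones raised, 1681 lowered and 2767 not called by 4 h of harpin in wild-type cells. Right, median log2 ratio of these clones (y axis) on each array of harpin (filled) and megaspermin (open) at 8 h. The harpin medians lie at 0.22 to 0.26 for raised and -0.41 to -0.36 for lowered clones. The megaspermin medians lie at -0.09 to -0.02 for raised and 0.05 to 0.12 for lowered clones. Clones of both classes were called in both directions under megaspermin.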

How the data were processed

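The arrays are 2-colour cDNA arrays, deposited as a single value table (32448 spots, 32 arrays). Its deposited numbers were taken to be log2 ratios, being signed and centred near 0 (array medians -0.066 to 0.070). Neither their base and normalization nor the numerator channel is given in the sources used here. Spots lying at fixed offsets were taken as duplicates of a clone, as 905 of 905 named pairs do, and averaged to 15360 clones; 1728 unpaired spots were left out. Symbols come from the platform's dated annotation (815 clones with 1 symbol, 90 with several, 14455 with none). No sequence was printed, since none of the clones' sequences was given.

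In R 4.3.3 with limma 3.58.1, the 30 arrays of standard dye orientation entered 1 model with 10 group means and empirical Bayes moderation. These groups include the abiotic control, xanthine oxidase and 4 h megaspermin arrays. The dye term of the alternatives rested on 2 dye-exchanged arrays, from the abiotic control genotype comparison and from wild-type cells at 4 h of harpin. Tests needed values on at least 2 arrays per group compared. The Benjamini-Hochberg adjustment ran over all clones tested in a comparison, with a threshold of 0.05. Errors are those of the model unless called SD. Since the arrays are volumes of 1 pooled culture, p-values measure the spread between such volumes. The fit was tested on simulated data. Python 3.11.15, pandas 2.3.3, numpy 2.4.6, scipy 1.17.1 and matplotlib 3.10.9 served for tables, exact tests and figures.

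Named genes were the 15 highest and 15 lowest called symbols and 3 highest and 3 lowest numbered loci at 8 h of harpin with 1 sign on every measured array, up to 8 in each direction per difference, and members of 11 role lists. Arrays and lists were chosen with earlier results of these data known. Alternatives were centring, scaling, array weights, fitting the groups alone, stricter value filters, a dye term, a replicate block and leaving out each array. Array numbers did not pair the arrays (correlations of their deviations -0.229 to 0.172).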

Additional observations from a re-analysis of the deposited data

Results flagged for a closer look

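The results here are differences of the genotype effect between conditions that passed the limma test of the difference itself, given on the log2 scale as 8 h of harpin minus the other condition. Each named value is that of 1 clone, the passing clone of its symbol with the largest difference, and does not stand for the other clones. Several of these calls were lost under other settings, as given with the differences above. Between 8 h of harpin and the control, 1469 clones passed, 17.8 percent of those tested. In the redox list 1 of 7 tested clones passed, and in the carbon metabolism list 1 of 21. Among the named genes, MS (0.95), CAT1 (0.95), STWRKY8 (0.86), NAC2 (0.81), BRP1 (0.75) and SUT2 (0.69) were more positive at 8 h of harpin. PPO (-1.81), MIP2 (-1.28), PEST2 (-1.11), BEL5 (-1.07), RGGA (-0.93), SI1 (-0.82) and GAPDH (-0.62) were more negative.

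Between 8 h and 4 h of harpin, 1565 clones passed. NAC2 (1.69), STUGE51 (1.48), BRP1 (1.42), ADH1 (1.27), MS (0.94), BEL5 (0.87), SUT2 (0.85) and AMYA1 (0.83) were more positive at 8 h. PEST2 (-1.41), RGGA (-0.97), PPO (-0.92) and GAPDH (-0.54) were more negative. The BEL5 clone here is not the one that was lower against the control.

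Between harpin and megaspermin at 8 h, 2231 clones passed. ERS (2.09), ADH1 (1.34), NAC2 (1.12), PPO (1.09), FLS (0.89), BRP1 (0.89), DE2 (0.79) and IAA2 (0.79) were more positive under harpin. BEL5 (-1.43), PK (-1.31), PHA2 (-1.28), PURM (-1.23), PEST2 (-1.05), UCP (-0.90), PGAM (-0.89) and SHKA (-0.83) were more negative under harpin. PEST2 was lower relative to all 3 other conditions and was itself near 0 at 8 h of harpin (0.16, -0.04 and -0.31), having been above wild type on every array of the others. Groups of 3 arrays were not searched for single outlying arrays.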

How the results depend on the processing

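The number of clones called at 8 h of harpin, 3833, ranged from 2865 (dye-exchanged arrays and a dye term) to 4619 (array weights) over the alternatives that kept all arrays, and from 2830 to 3074 without 1 of its arrays. The number whose effect differed from the control, 1469, rose to 2663 with array weights and was otherwise 1384 to 1976, or 1030 to 1234 without 1 array. The difference from 4 h of harpin gave 1156 to 1928, or 1063 to 1426 without 1 array, and that from megaspermin 1875 to 2672, or 1739 to 1977, each within 1.5 times its reported count. A replicate block gave 3722, 1408, 1487 and 2149 clones in these 4 comparisons. With the block the SUT2 difference from the control and the second PPO clone at 8 h were not called (adjusted p = 0.0679 and 0.0553). The array numbers showed no pairing in their deviations. The median absolute log ratio had a higher mean at 8 h of harpin than in the control and at 4 h under every alternative, although the arrays overlapped when all clones measured on each array were used, while its difference from megaspermin ran from -0.0225 to 0.0668 when 1 array was left out, reversing sign in 3 of 6 such settings. Harpin-responsive clones had medians of 0.41 (raised) and -0.97 (lowered) when the wild-type response was at least 2-fold, and 0.31 and -0.77 when read on the dye-exchanged array, a choice made after seeing the data, as was leaving out arrays for these medians (0.22 to 0.25 and -0.40 to -0.39) and for the array-wide values. Of 55 named clones called at 8 h, 39 kept the call under every alternative that gave them a value and 0 reversed, as did 8 of 13, 7 of 12 and 14 of 16 in the differences from the control, 4 h of harpin and megaspermin. The dye term cannot shift a difference between groups of the same dye orientation and changes only its error. For the differences, keeping a call under the dye term therefore says little. Why calls moved was not tested, except that leaving out arrays and requiring more values leave fewer clones and values to test. Clones without enough values, 7036 of 15360 at 8 h of harpin, remain unmeasured here, and only 3 arrays limit the precision of each value.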
